A study of Mus musculus with 6 samples.

Results

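The proteasome is the protease that degrades ubiquitin-tagged proteins. The genes described here are those whose symbol is Psma, Psmb, Psmc, Psmd or Psme followed by a number. A gene was taken where at least 1 array row named it alone, and it was represented by the row with the highest mean over all arrays. This gave 42 genes of the 22180 with a row of their own: 37 constitutive members and the 5 immunoproteasome members Psmb8, Psmb9, Psmb10, Psme1 and Psme2. Psma4 was left out because its rows also name another gene. The members were measured in epididymal white fat (eWAT, a visceral depot next to the epididymis) of male C57BL/6 mice of 8 months. All mice had been fed a high-fat diet (D12492) for 21 weeks. The groups were 3 wild-type mice (WT 1 to WT 3) and 3 mice with an adipose-specific transgene (Tg) for Blnc1, a long noncoding RNA known from thermogenic fat (Tg 1 to Tg 3), with 1 array per mouse. The promoter and line of the transgene are not given in the labels, and 0 rows carry the symbol Blnc1, so the genotype labels were not checked here.

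The core particle is a barrel of stacked rings. Psma genes encode the outer alpha rings, which gate the barrel, and Psmb genes the inner beta rings, which hold the cutting sites. A regulatory particle caps the barrel: its Psmc ATPases unfold the substrate, and its Psmd subunits bind and trim the ubiquitin chain. Immune cells, and other cells after interferon gamma, replace the catalytic subunits Psmb5, Psmb6 and Psmb7 with Psmb8, Psmb9 and Psmb10 and add a second kind of cap made of Psme1 and Psme2, which favours peptides for display on MHC class I. In fat, proteasome supply is under control of the transcription factor NFE2L1 (also called NRF1), best known from brown adipocytes.

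Promoter sequences of 3 members are shown, an immune and a pair of housekeeping beta subunits, because the results turn on these genes. Sequences are the 250 bases before the annotated start in RefSeq (GRCm38.p6), written 5′ to 3′ along the gene, and 35 of the 42 members had such a window. In Psmb9 capitals mark the 225 bases that are also in the window before the start of Tap1, a peptide transporter gene that is transcribed the other way. In Psmb5 and Psmb6 capitals mark a match to TGACNNNGC, the antioxidant-type element of the NRF factors.
Psmb9 (chr17:34187331-34187580, reverse strand): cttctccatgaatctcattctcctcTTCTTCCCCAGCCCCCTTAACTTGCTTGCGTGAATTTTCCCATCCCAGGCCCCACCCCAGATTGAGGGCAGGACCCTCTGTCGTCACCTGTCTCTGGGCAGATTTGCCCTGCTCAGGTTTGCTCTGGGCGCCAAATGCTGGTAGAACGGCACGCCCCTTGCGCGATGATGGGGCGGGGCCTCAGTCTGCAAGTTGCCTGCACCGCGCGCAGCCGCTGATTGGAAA
Psmb5 (chr14:54617996-54618245, reverse strand): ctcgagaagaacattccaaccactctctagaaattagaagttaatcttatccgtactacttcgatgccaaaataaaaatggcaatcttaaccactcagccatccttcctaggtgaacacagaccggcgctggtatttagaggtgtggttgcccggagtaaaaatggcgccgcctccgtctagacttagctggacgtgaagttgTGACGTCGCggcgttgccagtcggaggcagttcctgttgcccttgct
Psmb6 (chr11:70525107-70525356, forward strand): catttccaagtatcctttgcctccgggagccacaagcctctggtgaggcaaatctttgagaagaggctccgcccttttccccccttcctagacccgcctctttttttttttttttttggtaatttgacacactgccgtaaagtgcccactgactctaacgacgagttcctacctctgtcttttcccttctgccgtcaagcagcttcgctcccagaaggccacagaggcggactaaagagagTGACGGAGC

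Both strands were searched. TGACNNNGC was found in 0 of the 5 immunoproteasome genes and in 5 of 30 constitutive genes with a window (Psmb5, Psmb6, Psmc6, Psmd12 and Psmd9; 15.6% of their windows against 10.2% of 32841 windows of all genes). CCAAT, the box read by NF-Y, was found in 1 of the 5 immunoproteasome genes, Psmb9, and in 13 constitutive genes (40.6% of their windows against 33.9% of all windows). The shared window of Psmb9 and Tap1 lies in the MHC region of chromosome 17, where the order of genes is Psmb9, Tap1, Psmb8, Tap2. Psme1 and Psme2 are on chromosome 14 with 1 gene, Emc9, between them. Matches are descriptions of these letters, and no binding was measured.

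Values are deposited log2 signals, in which a difference of 1 is a factor of 2. Pearson's r between arrays over all rows lay between 0.979 and 0.990, a correlation across rows that are not independent. The labelled tissue was borne out by its markers: all 8 adipocyte markers read above the median of all rows, with Fabp4 between 12.19 and 12.38. Transcripts of the epididymis were also present. Of 8 epididymis markers, Lcn8, Lcn9, Lcn10, Rnase10, Adam7 and Cst11 read between 5.39 and 9.87 in Tg 2 and no higher than 2.69 in the other arrays. The epididymal defensin gene Defb42, chosen after its values were seen, read 4.37, 5.67 and 5.64 in WT 2, WT 3 and Tg 2 and 0.93, 1.19 and 1.16 in WT 1, Tg 1 and Tg 3. Results are therefore also given with WT 1, Tg 1 and Tg 3 only, which leaves 1 WT mouse. In whole tissue, fewer cells of a type and less RNA per cell cannot be told apart.

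The constitutive proteasome genes were nearly level between the genotypes, while Psmb8, Psmb9 and Psmb10 of the immunoproteasome were highest in 1 WT mouse, WT 3. The median difference of the 37 constitutive members, Tg minus WT, was -0.05 on the log2 scale. Their differences ran from -0.23, in the dim row of Psma8, to 0.12. The 5 immunoproteasome members had a median of -0.28 and ran from -0.42 to 0.35. No member passed an adjusted p of 0.05 in limma, and 0 had an unadjusted p under 0.05, beside 5.31% of all genes higher and 4.51% lower at that p. Over all 41345 rows the share called was 0%. The adjusted p of the members lay between 0.511 and 0.9996. Every 95% interval of the 37 constitutive members held 0, and together the intervals reached from -0.61, again in Psma8, to 0.39.

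In direction, 34 of the 42 members were lower in Tg at any size, against 50.0% of all genes and 54.6% of the 6384 genes with a mean level of 6 or above, but with each array centred on its median 18 of 42 were lower, beside 35.5% of all genes and 39.1% of genes of that level, and the constitutive median was 0.01. That centring moved the median of all genes from 0.00 to 0.07. The cell type markers also shifted with genotype: 8 of 8 adipocyte markers were higher in Tg, 6 with groups apart (median 0.36), and 8 of 8 macrophage markers were lower, 7 with groups apart (median -0.26), with 0 past the threshold. Their summed linear signals ran from 12738 to 14597 in WT and from 15264 to 16967 in Tg for adipocytes, and from 11647 to 12513 in WT and from 10263 to 10476 in Tg for macrophages. The part of these shifts in the small lean of the members was not tested. With WT 1, Tg 1 and Tg 3 only, 23 of 42 were lower, beside 48.1% and 50.9%. Groups were apart, meaning that every array of a group lay beyond every array of the other, in 4 members lower in Tg (Psma2, Psmb5, Psmb6 and Psmc5) and 1 member higher (Psma6). That is 9.52% and 2.38% of the members, beside 9.39% and 8.85% of all genes and 15.4% and 13.4% of genes with a level of 6 or above. With all 6 arrays the members are thus near or under the background. Fewer arrays separate more easily, in the members and in the background alike. Without WT 1, 12 of the 42 members were lower with groups apart. That is a larger share than the 17.2% of all genes, but only slightly above the 26.3% of genes with a level of 6 or above. Without Tg 1 the count was 14 of 42, a larger share than 14.9% and 20.4%. Without Tg 3 it was 9 of 42, a share between 14.97% and 22.4%. Without WT 3 it was 6 of 42, a share between 13.7% and 19.5%. Without WT 2 it was 5 of 42, a smaller share than 13.4% and 18.5%. Without Tg 2 it was also 5 of 42, a smaller share than 13.4% and 19.8%. The count higher was 3 without WT 3, beside 12.3% and 14.96%, and 2 each without WT 2 (13.1% and 16.3%), without Tg 2 (16.4% and 20.4%) and without Tg 3 (12.7% and 15.6%). Each of these counts higher is a smaller share of the 42 members than the percentages beside it.

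**Figure D1:**
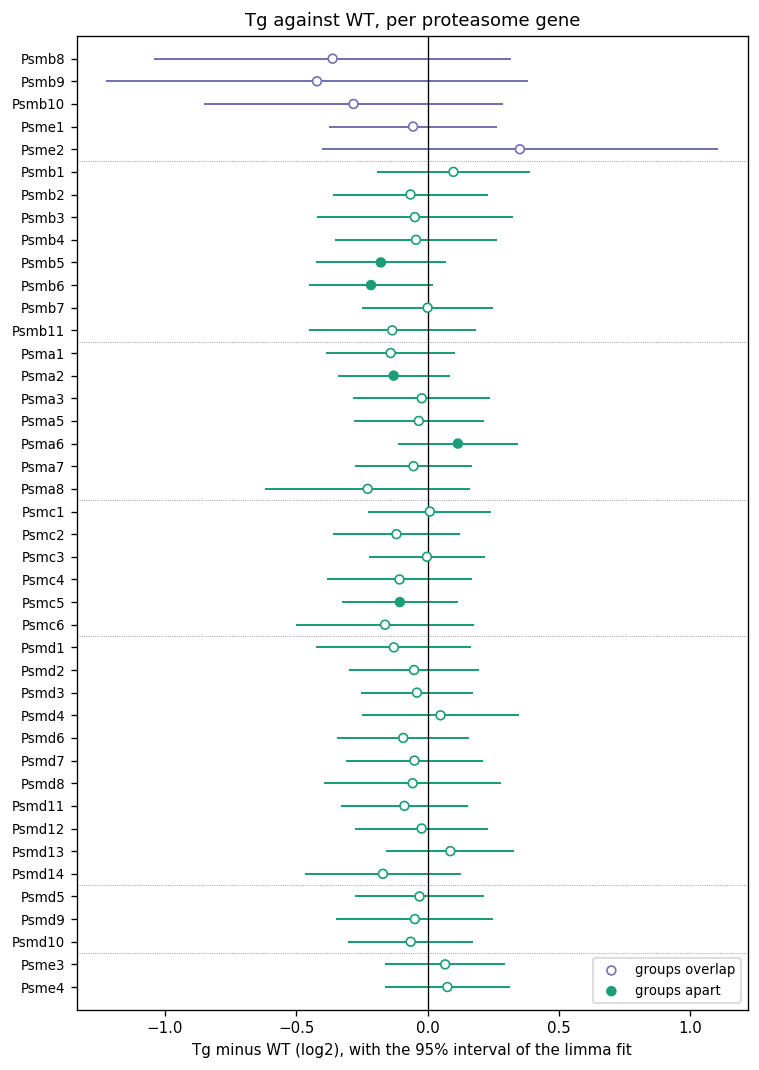
Difference between Tg and WT (log2, Tg minus WT) for each of the 42 proteasome genes, with the 95% interval of the limma fit (n = 3 per group); purple marks the 5 immunoproteasome members, green the 37 constitutive members, filled points genes whose groups are apart and dotted lines the role classes. All intervals cross 0, and those of Psmb8, Psmb9, Psmb10 and Psme2 are the widest.

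Constitutive members varied little from mouse to mouse. The range over the 6 arrays had a median of 0.25 in these 37 genes, against 0.35 in all genes with a level of 6 or above, and 26 of the 37 were below that value. Psmd3, a scaffold subunit of the regulatory particle's lid, varied least, between 6.29 and 6.37. The 5 immunoproteasome members had a median range of 1.12, and 0 of them were below the value for genes with a level of 6 or above. Psmb9 (mean 5.88) and Psme2 (4.25) were themselves under that level. Much of this range came from 1 array: without WT 3 it was 0.39 in Psmb8, 0.43 in Psmb9, 0.35 in Psmb10 and 0.20 in Psme1. In Psme2 it stayed at 1.21.

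**Figure D2:**
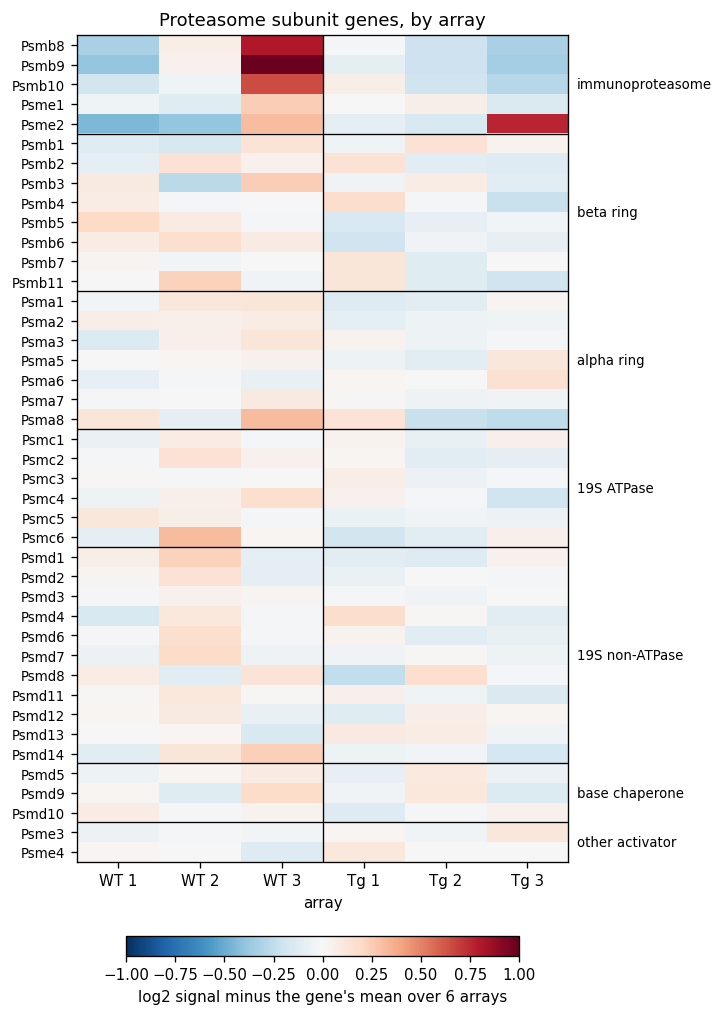
Heat map of the 42 proteasome genes (rows, by role class) on the 6 arrays (columns); colour is the log2 signal minus the gene's mean over the 6 arrays, from -1 (blue) to 1 (red). The deepest red is in immunoproteasome rows: WT 3 in Psmb8, Psmb9 and Psmb10, and Tg 3 in Psme2.

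The beta ring holds the cutting sites. Psmb6, the caspase-like catalytic subunit, read 7.90, 7.99 and 7.91 in the WT mice, in numbered order as in all such lists, and 7.63, 7.79 and 7.74 in the Tg mice. All Tg arrays were below all WT arrays, by -0.22 ± 0.10 (SE), the smallest p among the members (limma adjusted p = 0.511; 95% interval -0.45 to 0.02). Psmb5, the chymotrypsin-like subunit, read 6.32, 6.20 and 6.11 in WT and 5.97, 6.04 and 6.09 in Tg. Here too the groups were apart, with Tg 3 just under WT 3, and the difference of -0.18 ± 0.10 did not pass (adjusted p = 0.588). Psmb7, the trypsin-like subunit, read 7.95, 7.90 and 7.93 in WT and 8.04, 7.80 and 7.93 in Tg, with overlap, and averaged 7.92 ± 0.03 and 7.92 ± 0.12 (SD, n = 3), with a 95% interval of -0.25 to 0.25. Of the structural subunits Psmb1, Psmb2, Psmb3 and Psmb4, Psmb1 was higher by 0.10 and the others lower by -0.04 to -0.07, each by less than its SE. The row of Psmb3 was dim (2.66 to 3.18). Psmb11, the catalytic subunit made in thymic epithelium, read 1.51, 1.73 and 1.47 in WT and 1.62, 1.38 and 1.30 in Tg, the only member below the median of all rows.

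Alpha ring genes, which build the gate of the barrel, were level as well. Psma2 read 7.83, 7.82 and 7.84 in WT and 7.66, 7.71 and 7.72 in Tg, a difference of -0.13 ± 0.09 with the groups apart (limma adjusted p = 0.648). Psma6 was the only member higher in Tg with groups apart, at 7.61, 7.67 and 7.61 in WT and 7.71, 7.69 and 7.84 in Tg, or 0.12 ± 0.09 (adjusted p = 0.707). In Psma6, Tg 2 lay just above WT 2. Psma1, Psma3, Psma5 and Psma7 differed by -0.14 to -0.02 with overlapping groups, and the row of Psma5 was dim (2.65 to 2.88). A second row of Psma5, as dim, read 0.14 ± 0.15 in the other direction. Psma8, the alpha subunit of the testis proteasome, read 3.50, 3.28 and 3.70 in WT and 3.51, 3.15 and 3.12 in Tg, and it differed by -0.23 ± 0.16 with overlap. Testis germ cell markers were near the floor, with Prm1, Tnp1 and Tnp2 between 0.94 and 1.98. Of the skeletal muscle markers Myh4 and Ckm read between 0.75 and 3.74, and Acta1 between 7.49 and 8.55.

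The ATPase ring unfolds substrates. Of its 6 genes, Psmc5 alone had groups apart, at 6.86, 6.81 and 6.74 in WT and 6.68, 6.71 and 6.69 in Tg (-0.11 ± 0.09, limma adjusted p = 0.718). Psmc1 and Psmc3 differed by 0.01 and less, and Psmc2, Psmc4 and Psmc6 by -0.12, -0.11 and -0.16. A second, dimmer row of Psmc2 read 0.36 ± 0.20 in the other direction, so the 2 rows of this gene disagree.

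Of the 11 non-ATPase subunits, which include the ubiquitin receptors and the deubiquitinase, 0 had groups apart and 9 were lower in Tg. Psmd14, the deubiquitinase that strips the ubiquitin chain before degradation, had the smallest p, with 6.13, 6.35 and 6.48 in WT and 6.18, 6.21 and 6.06 in Tg. WT 1 lay inside the Tg range, and the difference was -0.17 ± 0.12 (limma adjusted p = 0.667). Psmd4, a ubiquitin receptor, was higher by 0.05 ± 0.12, and Psmd13, a lid subunit, by 0.09 ± 0.10. The ubiquitin-binding scaffold Psmd2 differed by -0.05 ± 0.10. The chaperones that assemble the base, Psmd5, Psmd9 and Psmd10, differed by -0.03, -0.05 and -0.06. Psmd10, also known as gankyrin, read 6.72, 6.63 and 6.68 in WT and 6.51, 6.63 and 6.69 in Tg, with overlap. The alternative caps were level too: Psme3, the nuclear activator PA28 gamma, read 7.19, 7.23 and 7.22 in WT and 7.27, 7.21 and 7.36 in Tg, and Psme4, the activator PA200, 8.06, 8.05 and 7.91 in WT and 8.15, 8.05 and 8.05 in Tg.

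Immunoproteasome genes had another pattern. Psmb8, which takes the place of Psmb5, read 7.04, 7.43 and 8.16 in WT and 7.35, 7.16 and 7.04 in Tg. Psmb9, which takes the place of Psmb6, read 5.49, 5.92 and 6.86 in WT and 5.79, 5.67 and 5.54 in Tg. Psmb10, which takes the place of Psmb7, read 7.17, 7.31 and 8.01 in WT and 7.42, 7.16 and 7.07 in Tg. In all 3 genes WT 3 was the highest array, and WT 1 lay within or below the range of the Tg arrays.

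The differences were -0.36 ± 0.28, -0.42 ± 0.33 and -0.28 ± 0.24 for Psmb8, Psmb9 and Psmb10, with limma adjusted p of 0.692, 0.697 and 0.714. Intervals were wide, from -1.22 to 0.38 for Psmb9. Without WT 3 the differences were -0.05, -0.04 and -0.03, and without WT 1 they were -0.61, -0.72 and -0.45. With WT 1, Tg 1 and Tg 3 only, they were 0.16, 0.17 and 0.07. The size and the sign of a genotype difference in these genes thus depended on which WT mice were counted.

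The PA28 cap subunits did not move together. Psme1 read 7.89, 7.81 and 8.18 in WT and 7.93, 7.99 and 7.79 in Tg. WT 3 was again the highest, and the difference of -0.06 ± 0.13 changed sign without WT 3 (0.05), without Tg 3 (0.00) and with median centring (0.01). Psme2 read 3.80, 3.86 and 4.56 in WT and 4.16, 4.10 and 5.01 in Tg, so its highest array was Tg 3, and it was higher in Tg by 0.35 ± 0.31 (limma adjusted p = 0.730). That difference was 0.06 without Tg 3, 0.21 without WT 1, 0.59 without WT 3 and 0.79 with WT 1, Tg 1 and Tg 3 only. The row of Psme2 was dim, and a further row that names Psme2 with other genes was not used, so its value is uncertain.

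**Figure D3:**
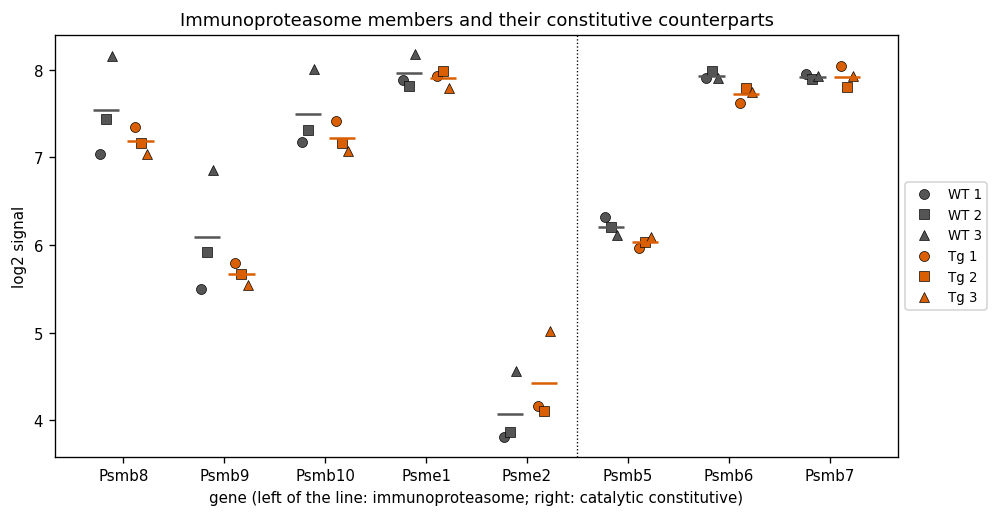
Log2 signal of the 5 immunoproteasome members and, right of the dotted line, of the catalytic constitutive subunits Psmb5, Psmb6 and Psmb7, for WT (grey) and Tg (orange); each symbol is 1 array and the bars are group means (n = 3). WT 3 (grey triangle) lies at 8.16, 6.86 and 8.01 in Psmb8, Psmb9 and Psmb10, above the other 5 arrays of each gene.

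Set against the constitutive members within each array, the mean of the 5 immunoproteasome members, each relative to its average over the arrays, was -0.28, -0.14 and 0.56 in WT and -0.01, -0.11 and -0.02 in Tg. The group difference was -0.10, with an SD of 0.45 among WT and 0.05 among Tg arrays, and it was 0.16 without WT 3. Leaving out the cap subunits, the 3 beta subunits gave -0.30, -0.03 and 0.77 in WT and -0.00, -0.17 and -0.27 in Tg. The 3 exchange pairs were tested by an exact permutation test over the arrays (2-sided, n = 3 per group, smallest possible p = 0.1). Psmb8 minus Psmb5 differed between the genotypes by -0.18 ± 0.41 (SE; exact p = 0.80), Psmb9 minus Psmb6 by -0.21 ± 0.42 (exact p = 0.80) and Psmb10 minus Psmb7 by -0.28 ± 0.27 (exact p = 0.40). Adjusted over the 3 pairs, each exact p was 0.80; with 3 arrays a group the test could not pass 0.05, so it says nothing on whether the forms shifted.

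WT 3 exceeded the mean of the other 5 arrays by 0.96 in Psmb8, 1.17 in Psmb9, 0.79 in Psmb10, 0.30 in Psme1 and 0.37 in Psme2. In the constitutive members the same quantity lay between -0.18 and 0.38, the highest being that of the testis subunit Psma8, whose row was dim (3.12 to 3.70). WT 3 was the highest array in 4 of the 5 immunoproteasome members and in 9 of the 37 constitutive members, where it was the highest in 20.3% of genes with a level of 6 or above.

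The partner genes of the immunoproteasome showed the same mouse. Tap1, the transporter subunit that shares its upstream window with Psmb9, read 6.67, 7.40 and 8.00 in WT and 7.10, 6.82 and 6.71 in Tg. Nlrc5, the transactivator of MHC class I genes, read 4.86, 5.55 and 6.03 in WT and 5.01, 4.98 and 4.85 in Tg. Irf1, the interferon-induced factor that drives Psmb9, read 5.93, 6.32 and 6.86 in WT and 6.03, 6.12 and 5.69 in Tg. In each, WT 3 was the highest and WT 1 was in or below the range of the Tg arrays. Of 11 measured MHC class I presentation genes 9 were lower in Tg (median -0.13), and of 20 genes of interferon gamma signalling and targets 17 were lower (median -0.30), with 0 past the threshold in either list. WT 3 was the highest array in 7 of the 11 and in 16 of the 20. Ifng itself, at 1.65 to 2.60, read low in all arrays, and Tap2 (-0.30 ± 0.22), Irf8 (-0.38 ± 0.17, but 0.13 with the mean of its rows) and Erap1 (-0.17 ± 0.11) overlapped between the groups, while B2m, the MHC class I light chain, differed by 0.05 ± 0.09.

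Markers of some immune cells were also highest in WT 3. The mean level of 10 T and NK cell markers was 3.76, 5.01 and 5.68 in WT and 4.51, 3.89 and 3.72 in Tg, and WT 3 was the highest array in 9 of them. Their summed linear signal ran from 203 to 887 in WT and from 199 to 341 in Tg, and 1 of the 10 had a mean level below the median of all rows, Cd3d. Dendritic cell markers, 4 genes, summed to between 44.9 and 85.3 in WT, WT 3 being the highest, and to between 46.5 and 58.0 in Tg. B cell markers, 3 genes, did not share this order, with list means of 4.68, 5.24 and 5.19 in WT and 5.43, 3.63 and 4.29 in Tg. The 5 endothelial markers had their lowest list mean, 8.00, in WT 3. The 8 macrophage markers had list means of 10.23, 10.31 and 10.39 in WT and 10.06, 9.96 and 10.02 in Tg. WT 3 was the highest array in 5 of them, but here WT 1 lay above all Tg arrays, unlike in Psmb8, Psmb9 and Psmb10. All 8 adipocyte markers had their lowest array in WT 3 (list mean 9.89). The 4 epididymal duct genes chosen after their values were seen had list means of 1.34, 5.48 and 6.66 in WT and 1.65, 3.76 and 1.49 in Tg. Of these, Spink8 read 1.21, 6.55 and 8.09 in WT and 1.17, 2.53 and 1.16 in Tg, and Serpina1f 1.54, 6.58 and 8.09 in WT and 1.39, 1.66 and 1.63 in Tg, both highest in WT 3. The part of these cells and of the epididymis in the immunoproteasome values was not tested.

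**Figure D4:**
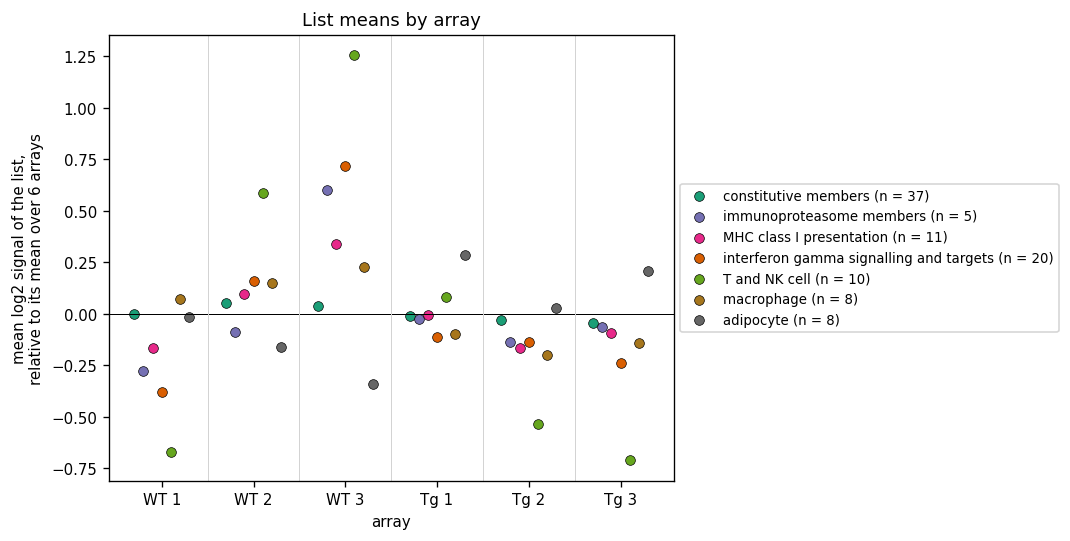
Mean log2 signal of each gene list on each array, relative to the list's own mean over the 6 arrays; each point is 1 list on 1 array and the legend gives the number of genes. The constitutive members lie between -0.04 and 0.05 on every array, while the immunoproteasome, MHC class I, interferon gamma, and T and NK cell lists are all highest in WT 3, at 0.60, 0.34, 0.72 and 1.25.

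Genes that assemble and regulate the proteasome were taken from a list of 15, of which 13 had a row of their own, and 0 passed. Psmg3, an assembly chaperone of the alpha ring, was lower in Tg with groups apart, at 3.57, 3.14 and 3.38 in WT and 2.73, 2.98 and 2.93 in Tg (-0.48 ± 0.14, limma adjusted p = 0.378). The row of Psmg3 was dim. Psmg2, another such chaperone, read 6.07, 6.04 and 6.06 in WT and 5.90, 5.86 and 5.85 in Tg (-0.19 ± 0.09, limma adjusted p = 0.523). Psmg1 and Psmg4, chaperones of the same ring named after their values were seen, were not lower. They differed by 0.19 ± 0.12 and 0.02 ± 0.14, with overlap. Pomp, the maturation factor of the beta ring, differed by -0.14 ± 0.11 and Psmf1, an inhibitor of the core, by 0.10 ± 0.10, both with overlap. Nfe2l1, the factor that raises proteasome gene transcription when the protease is inhibited, differed by 0.07 ± 0.13, and its relative Nfe2l2 by -0.19 ± 0.10 with groups apart (adjusted p = 0.543). Sem1, a small lid subunit outside the naming rule, differed by -0.04 ± 0.11. In this list 1 gene was higher and 5 were lower with groups apart, beside 8.85% and 9.39% of all genes and 13.4% and 15.4% of genes with a level of 6 or above.

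Ubiquitin supply and delivery genes leaned the other way. Of 10 measured genes 7 were higher in Tg, and in 4 of those the groups were apart, beside 8.85% of all genes and 13.4% of genes with a level of 6 or above. Ubqln2, a shuttle that carries ubiquitinated proteins to the proteasome, read 7.33, 7.10 and 7.08 in WT and 7.68, 7.70 and 7.67 in Tg, a difference of 0.52 ± 0.11 (1.43-fold, limma adjusted p = 0.326). The related shuttles Ubqln1 (0.27 ± 0.09, adjusted p = 0.414) and Ubqln4 (0.28 ± 0.13, adjusted p = 0.528) also had groups apart, as had the ubiquitin ligase Ube3c (0.10 ± 0.10); Ubqln4 and Ube3c were named after their values were seen. The proteasome-bound deubiquitinases Usp14 (-0.07 ± 0.09) and Uchl5 (0.10 ± 0.14) overlapped. None of these genes passed the threshold.

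Ubd, the ubiquitin-like protein FAT10 that sends proteins to the proteasome and is known as a target of interferon gamma, did not follow WT 3. It read 6.61, 6.70 and 6.52 in WT and 7.06, 7.10 and 7.11 in Tg, so the groups were apart and WT 3 was the lowest array. The difference was 0.48 ± 0.10 (1.40-fold, limma adjusted p = 0.326), and it kept its sign in every alternative tried.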

How the data were processed

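RNA of epididymal fat from 3 WT and 3 Tg mice was measured on Affymetrix whole-transcript arrays, 1 per mouse. The deposited values are log2 signals, made by the authors with RMA, per the submitters' processing notes, which also name limma; versions and a genome build are not given in the sources used here. The values were used as deposited. Tg and WT were compared over all 41345 rows by lmFit and eBayes of limma (3.58.1, under R 4.3.3), with Benjamini-Hochberg adjustment over all rows, a threshold of 0.05 and 95% intervals. The labels call the arrays biological replicates, and their number limits the precision.

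Genes were named from the platform annotation (23521 rows with 1 gene, 1814 with several, 16010 with none, which are unnamed here). Members and gene lists were chosen with earlier results of these data known. Named were the immunoproteasome members, the catalytic subunits, Psme3, Psme4, Psma8, Psmb11 and, per role class, members with groups apart or else the smallest p, with values in every array; outside the members, set partner genes and the 2 smallest p of each pathway list. Lists were described by counts and medians, without a test. Erythroid markers had no row of their own. Alternatives were other scalings, filters, variance models and row choices, a replicate block, leaving out each array, and WT 1, Tg 1 and Tg 3 only; those for the count of members lower at any size were added after seeing the data. Promoter windows were searched with Python 3.11.15. Replicate numbers were read as names and not as pairs of mice. Other motif searches are not reported here.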

Additional observations from a re-analysis of the deposited data

How the results depend on the processing

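No member passed the threshold in any alternative run, and 0 rows passed, of 41345 or, where rows were filtered or averaged, of 20672, 23521 and 40004; the smallest adjusted p of a member (limma) lay between 0.342 and 0.917 over the alternatives. Of 590 gene values under alternatives, 25 had the opposite sign, 9 of them with 1 array left out. With WT 1, Tg 1 and Tg 3 only, which leaves 1 WT mouse whose spread is assumed to be like that of Tg, the sign turned in Psmb8 (0.16), Psmb9 (0.17), Psmb10 (0.0743), Psmb7 (0.0378), Tap1 (0.23), Tap2 (0.21), Nlrc5 (0.0741) and Ifng (0.12). Members with groups apart were then 9 higher and 12 lower, of 42. Both are smaller shares than the 35.3% and 32.7% of all genes there. The same holds beside the 33.9% and 35.6% of genes with a level of 6 or above. In this setting the constitutive median was -0.0167, the immunoproteasome median 0.16 and the immunoproteasome minus constitutive difference 0.26. With median centring the sign turned in Psme1 (0.0098), Psmb7 (0.0649), Psmd10 (0.00065) and Sem1 (0.0290). Of the 42 members, 3 were then higher and 1 lower with groups apart. Both are smaller shares than the 13.8% and 4.95% of all genes there. The same holds beside the 19.3% and 8.15% of genes with a level of 6 or above. The constitutive median was 0.0134 and 18 members were lower at any size, by construction of a shift common to all genes. Psmb7 turned with quantile normalization (0.0052), cyclic loess (0.0065) and array weights (0.0056), and Irf8 with the mean of its rows (0.13). Quantile normalization and cyclic loess each gave 2 of 42 members higher with groups apart, beside 10.9% and 10.4% of all genes. With 1 array left out, members with groups apart were 1 to 3 higher, beside 12.3% to 16.4% of all genes. Lower were 5 to 14, beside 13.4% to 17.2% of all genes and 18.5% to 26.3% of genes with a level of 6 or above. Fewer arrays separate more easily, but the 14 of 42 without Tg 1 were a larger share than the 14.9% and 20.4% there. The 5 of 42 without WT 2, and without Tg 2, were smaller shares than those of all genes. The constitutive median was -0.07 to -0.04 and the immunoproteasome median -0.45 to -0.03. The immunoproteasome minus constitutive difference was -0.26 to 0.16, and the members lower at any size were 29 to 34. Signs turned in Psme1 (-0.13 to 0.0544), Psmb7 (-0.0594 to 0.0618), Sem1 (-0.11 to 0.0193) and Nfe2l1 (-0.0037 to 0.17). Other causes were not tested.

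Arrays with the same replicate number correlated at -0.04, 0.01 and -0.04 in their deviations. Arrays with different numbers were not set beside them, so these values cannot show whether the numbers pair the mice. With the replicate number as a block, 0 members passed (smallest adjusted p 0.462, limma), groups apart stayed at 1 higher and 4 lower, and 0 of 37 gene values turned.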
